A study of Mus musculus with 26 samples.

Results

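The promoter contacts of mouse epiblast stem cells (EpiSCs) were compared, across genes, with the level of expression of the same genes in the same cells. Members were the genes named on a baited fragment of the EpiSC promoter Capture Hi-C (PCHi-C) list that had at least 1 listed pair within a chromosome (cis pair) and a value in the RNA-seq table, joined by gene name. There were 13133 such genes, of 15313 genes that had an RNA-seq value and a baited fragment in any of the 3 deposited lists. The other 2180 genes had no cis pair in EpiSCs. A further 2841 names with a cis pair had no RNA-seq value, and 333 genes of the RNA-seq table were named in none of the 3 lists. Baits without a listed pair in any of the 3 lists are not seen. Baited genes are therefore those named in at least 1 list, and shares without a pair are shares of these.

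PCHi-C cross-links nuclei, cuts the DNA with HindIII, ligates fragments that lie close together, and then pulls out the ligation products that contain a promoter with RNA baits. Each product joins a baited fragment either to an unbaited fragment or to another baited fragment, so that promoter-to-promoter contacts are seen from both sides. CHiCAGO scores a pair by how far its reads exceed those expected for baits of that kind at that distance. Contacts of this type bring enhancers to promoters, but silent promoters can also be in contact, for example the Hox clusters and other targets of the Polycomb complexes. Expression is given as RPKM, reads scaled by gene length and by the reads mapped in the library, which allows levels of different genes to be compared.

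The series holds PCHi-C and RNA-seq of wild-type (WT) ESCs of the line E14Tg2a (129P2/OlaHsd), Nanog-/- ESCs of the line RCNβH-B(t), and EpiSCs derived from 129S2 embryos, although the strain label of the samples reads C57BL/6. EpiSCs are the cultured form of the epiblast after implantation, and were grown on fibronectin in N2B27 medium with Activin A and bFGF. PCHi-C of EpiSCs has 2 sequencing lanes and RNA-seq 4 samples, but the deposited values are 1 combined list and 1 median RPKM per gene. No value below therefore has a replicate error, and intervals cover counting error only, as if genes and pair ends were independent. Marker genes fitted the EpiSC label. Of 17 measured genes of the primed state, 16 were higher than in WT ESCs, among them the growth factor Fgf5 at 219 RPKM (4.74 in WT ESCs). All 13 measured genes of the naive state were lower, with a summed RPKM of 79.6 (1310 in WT ESCs), and Nr0b1 and Tcl1 were listed at 0. Genes listed as markers of germ layers and of other cell types were expressed too. The 14 measured germ layer genes added up to 678 RPKM (14.0 in WT ESCs), carried by the mesoderm factor T at 444. Of the 14, 10 were higher than in WT ESCs, and Mesp1, Gata4, Hand1, and Neurog2 were lower. In addition, all 5 measured fibroblast genes were higher than in WT ESCs, with Col1a1 at 137 RPKM (15.0). Primitive endoderm genes added up to 43.8 RPKM (4.59), and neural genes to 21.1 (89.4). RNA-seq and PCHi-C both read many cells together, so that fewer cells of a type and less RNA per cell cannot be told apart. Whether this RNA came from EpiSCs or from other cells cannot be told either. The part of any other cells in the values below was not tested.

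The EpiSC list comprises 86981 different cis pairs, with a median of 11 reads, a median CHiCAGO score of 6.53, and a median distance of 141 kb between fragment midpoints. The members had a median of 4 cis pairs (interquartile range 2 to 8, highest 92) and a median of 10.1 RPKM (0.310 to 44.3). Of the members, 8866 (67.5%) had at least 1 RPKM and 1642 were listed at 0.

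The sequences that bear on the contrast between contacts and expression are the promoters of genes at its corners. Each is 300 bases from RefSeq (GRCm38.p6), 250 before and 50 after the start, 5′ to 3′ on the gene's strand, with CpG dinucleotides in capitals. Dmkn, an epidermal secreted protein gene (chr7:30763506-30763805, plus strand), and Fam120b (chr17:15395952-15396251, plus strand) had the most cis pairs, 92 and 88. Ffar3, a receptor for short-chain fatty acids (chr7:30856129-30856428, minus strand), had 84 at 0 RPKM. Lars2, the mitochondrial leucyl-tRNA synthetase (chr9:123366677-123366976, plus strand), had 1768 RPKM and 1 cis pair.
Dmkn: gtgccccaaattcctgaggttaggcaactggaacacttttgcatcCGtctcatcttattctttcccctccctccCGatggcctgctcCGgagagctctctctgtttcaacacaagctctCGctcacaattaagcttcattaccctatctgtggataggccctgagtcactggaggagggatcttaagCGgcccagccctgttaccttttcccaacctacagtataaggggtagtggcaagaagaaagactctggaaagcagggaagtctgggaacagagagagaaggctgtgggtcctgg
Fam120b: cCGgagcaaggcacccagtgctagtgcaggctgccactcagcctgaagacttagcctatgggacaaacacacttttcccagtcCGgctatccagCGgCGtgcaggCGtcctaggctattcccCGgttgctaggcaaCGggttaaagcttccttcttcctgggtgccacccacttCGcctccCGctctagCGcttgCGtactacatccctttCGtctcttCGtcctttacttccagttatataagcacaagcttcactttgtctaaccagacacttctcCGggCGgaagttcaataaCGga
Ffar3: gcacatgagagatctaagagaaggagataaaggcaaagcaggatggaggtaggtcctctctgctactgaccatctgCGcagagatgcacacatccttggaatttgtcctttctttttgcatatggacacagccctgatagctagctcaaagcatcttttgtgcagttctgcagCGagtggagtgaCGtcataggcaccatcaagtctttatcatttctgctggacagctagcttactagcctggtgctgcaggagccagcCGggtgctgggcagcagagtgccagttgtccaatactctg
Lars2: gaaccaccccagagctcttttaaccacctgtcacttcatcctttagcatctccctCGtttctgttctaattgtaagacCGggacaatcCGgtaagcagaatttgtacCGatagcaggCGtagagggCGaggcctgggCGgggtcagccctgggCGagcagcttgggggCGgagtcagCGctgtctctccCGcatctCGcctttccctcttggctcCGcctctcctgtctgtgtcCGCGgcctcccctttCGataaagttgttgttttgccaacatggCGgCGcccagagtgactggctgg
The promoters of Dmkn and Ffar3 hold 5 and 4 CpGs, those of Fam120b and Lars2 16 and 18. The median over the 9727 genes with a start inside their own baited fragment was 17.

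Partner fragments are shown for the unbaited best partners of at most 300 bases among the 10 most connected genes and the 5 pairs of highest score, since these can be printed whole. They are the reference sequence of GRCm38, plus strand, and capitals mark what HindIII leaves of its site at either end of the fragment. Scnn1g, an epithelial sodium channel subunit at 0 RPKM, contacted a 217-base fragment in an intron of Cog7 (chr7:121963927-121964143) at 229 kb (76 reads, score 83.5). The glutamate receptor gene Grik4 contacted a 201-base fragment in its own intron (chr9:42582188-42582388) at 361 kb, with 40 reads. A730018C14Rik contacted an intergenic fragment of 272 bases (chr12:112145910-112146181) at 278 kb, with 23 reads. E130303B06Rik contacted a 198-base fragment in an intron of Nutf2 (chr8:105862523-105862720) at 153 kb, with 22 reads.
Scnn1g partner: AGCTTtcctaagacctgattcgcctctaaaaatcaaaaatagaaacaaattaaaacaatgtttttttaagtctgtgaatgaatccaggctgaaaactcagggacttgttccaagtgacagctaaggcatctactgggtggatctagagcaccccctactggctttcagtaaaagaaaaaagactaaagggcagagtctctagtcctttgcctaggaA
Grik4 partner: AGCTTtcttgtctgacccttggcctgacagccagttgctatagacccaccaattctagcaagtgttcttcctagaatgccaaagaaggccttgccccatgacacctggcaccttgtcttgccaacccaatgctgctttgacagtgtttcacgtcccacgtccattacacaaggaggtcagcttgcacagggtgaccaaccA
A730018C14Rik partner: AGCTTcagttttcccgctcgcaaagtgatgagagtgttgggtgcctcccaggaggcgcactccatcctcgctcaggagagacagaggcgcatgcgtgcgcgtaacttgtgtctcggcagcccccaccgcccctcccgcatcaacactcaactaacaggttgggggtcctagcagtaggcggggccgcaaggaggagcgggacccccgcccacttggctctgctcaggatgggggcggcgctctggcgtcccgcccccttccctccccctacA
E130303B06Rik partner: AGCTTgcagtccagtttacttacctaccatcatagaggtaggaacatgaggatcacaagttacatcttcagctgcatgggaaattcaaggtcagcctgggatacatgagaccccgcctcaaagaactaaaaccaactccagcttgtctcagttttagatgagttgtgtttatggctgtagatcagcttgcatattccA
The fragment contacted by A730018C14Rik adjoins the baited fragment of Kif26a (chr12:112146182-112148325), another of the 10 most connected genes.

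The number of cis pairs was almost unrelated to the level of expression. Spearman's rho over the 13133 genes was 0.071, a description across genes that share libraries, depth, and neighbouring baits. The relation was not steady. Genes with no cis pair had a median of 2.17 RPKM (0.0333 to 29.5), and genes with 1 cis pair 4.97 RPKM (0.0916 to 36.3). Genes with 2 to 4, 5 to 9, and 10 to 19 cis pairs had medians of 12.0, 12.4, and 12.7 RPKM, which differ by little beside their interquartile ranges. Genes with 20 or more pairs had a lower median of 8.67 RPKM (0.339 to 40.9, 807 genes). The order of the classes at either end depended on the score. Genes with 1 cis pair had a median of 11.3 RPKM and those with 20 or more 6.96 RPKM with pairs scored at least 7, and 13.4 and 1.43 RPKM (25 genes) with pairs scored at least 10. The share of genes with at least 1 RPKM was 55.1% without a pair (95% Wilson interval 53.0 to 57.2), 70.6% at 10 to 19 pairs (68.5 to 72.6), and 67.2% at 20 or more (63.8 to 70.3). Conversely, 79.3% of the baited genes under 0.1 RPKM had a cis pair (77.9 to 80.7), against 89.2% of those with at least 100 RPKM (87.6 to 90.6). Silent and highly expressed genes that had a pair held similar numbers, with means of 5.89 and 6.80 and medians of 3 and 4.

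**Figure D1:**
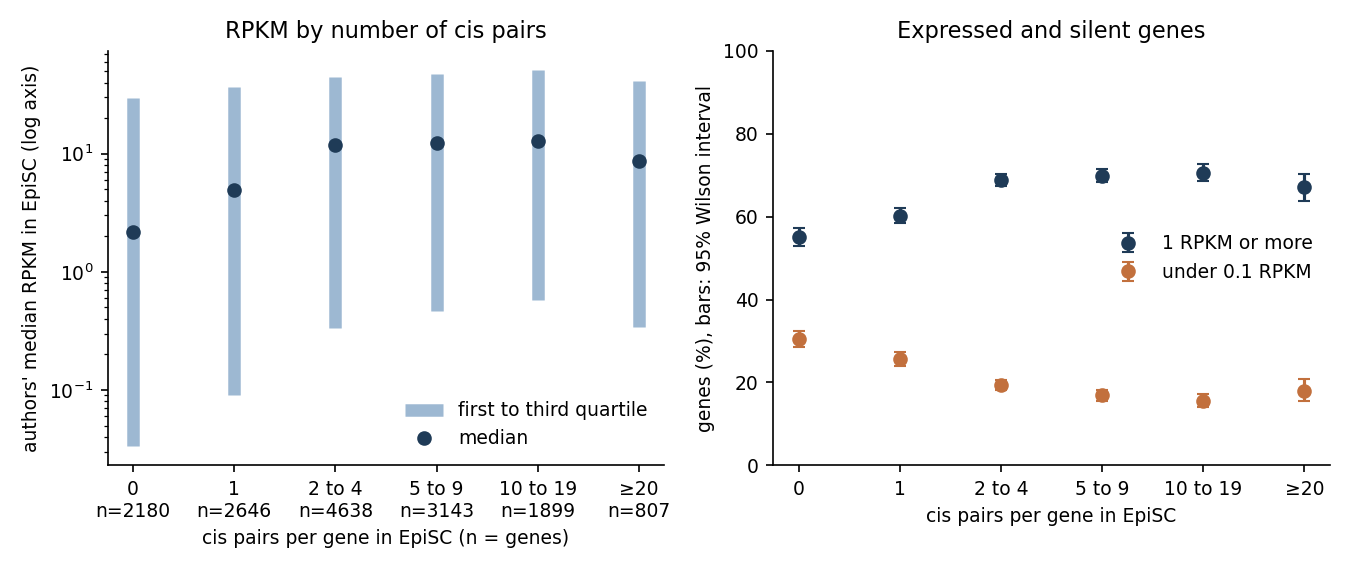
Left, authors' median RPKM in EpiSCs (log axis) of genes in classes of cis pair number, with the median as a point and the interquartile range as a bar. Right, share of the same genes with at least 1 RPKM or under 0.1 RPKM with 95% Wilson intervals; the median is lowest at 0 pairs (2.17 RPKM), lies near 12 RPKM from 2 to 19 pairs, and is 8.67 RPKM at 20 or more, while with pairs scored at least 7 it is higher at 1 pair (11.3 RPKM) than at 20 or more (6.96 RPKM).

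The rho of pair number was smaller without silent genes and without weak pairs. Among the 8866 genes with at least 1 RPKM it was 0.021. It was 0.042 without the olfactory, vomeronasal, and taste receptor genes, and 0.112 when the genes without a pair were counted as 0 pairs. With only pairs scored at least 7 it was 0.017 over 9313 genes, and with only pairs scored at least 10 it was -0.0063 over 5076 genes.

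The 10 members with the most contacts ranged from 0 to 77.7 RPKM. Of these, 3 were at 0 RPKM, beside 1642 of all 13133 members, and 1 exceeded the third quartile over all members (44.3 RPKM). Myod1, the master regulator of skeletal muscle, had 86 cis pairs at 0 RPKM (chr7:46375869-46378477), with 6 baited partners and its best partner in Otog at 92.2 kb. Kif26a, a kinesin-like protein gene, had 75 cis pairs at 18.1 RPKM. Grik4 had 73 at 1.43 RPKM. Fam166b had 65 at 1.77 RPKM, A730018C14Rik had 65 at 0 RPKM, and Hoxc5 had 64 at 0.143 RPKM. E130303B06Rik, with 62 cis pairs, was the most expressed of the 10 at 77.7 RPKM, and Fam120b had 19.9 RPKM. The reads behind these genes were many, from 850 for E130303B06Rik to 2258 for Dmkn, against a median of 62 over all members. The other members under 0.1 RPKM with the most pairs were the calpain gene Capn8 with 62 cis pairs and Gm17649 with 61, in the HoxC region (chr15:102919362-102922855).

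Highly connected genes lay near each other. Dmkn and Ffar3 are 93.2 kb apart and were each other's partners, with 69 reads and a score of 54.3, and the best partner of Dmkn was the fragment of Ffar1 next to that of Ffar3 (96.1 kb, 54 reads). A730018C14Rik and Kif26a lie in the same region of chromosome 12, as shown above, and Hoxc5 and Gm17649 in the same region of chromosome 15. Of the 807 genes with 20 or more cis pairs, 66.9% had another such gene within 500 kb (63.6 to 70.1), against 41.1% of the other 12326 members (40.2 to 41.9). Pair numbers of neighbouring members within 500 kb had a rho of 0.274 over 12108 neighbour pairs, and their RPKM values a rho of 0.246. The number of other baits within 500 kb, a measure of local promoter density, had a rho of 0.223 with pair number and of 0.012 with RPKM.

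Distance had a clearer, though small, relation to expression. The median distance of a gene's cis pairs was 151 kb under 0.1 RPKM (interquartile range 68.1 to 271), 137 kb at 0.1 to 1 RPKM, 124 kb at 1 to 10, 116 kb at 10 to 100, and 99.5 kb at 100 RPKM or more (47.6 to 194). The order of the 5 medians followed that of the classes, and the interquartile ranges overlapped widely. The rho over the 13133 genes was -0.104. It was below 0 on each of the 20 chromosomes, from -0.213 on chromosome 15 to -0.0115 on chromosome 13, and between -0.0688 and -0.149 under the alternatives tried. Pairs under 50 kb were 19.7% of the pair ends of genes under 0.1 RPKM and 26.4% of those of genes with 100 RPKM or more. Those of 400 to 800 kb were 11.6% and 6.39%. Above 800 kb the shares were 2.05% (1.83 to 2.28) and 1.55% (1.32 to 1.81), with 690 members that had such a pair.

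**Figure D2:**
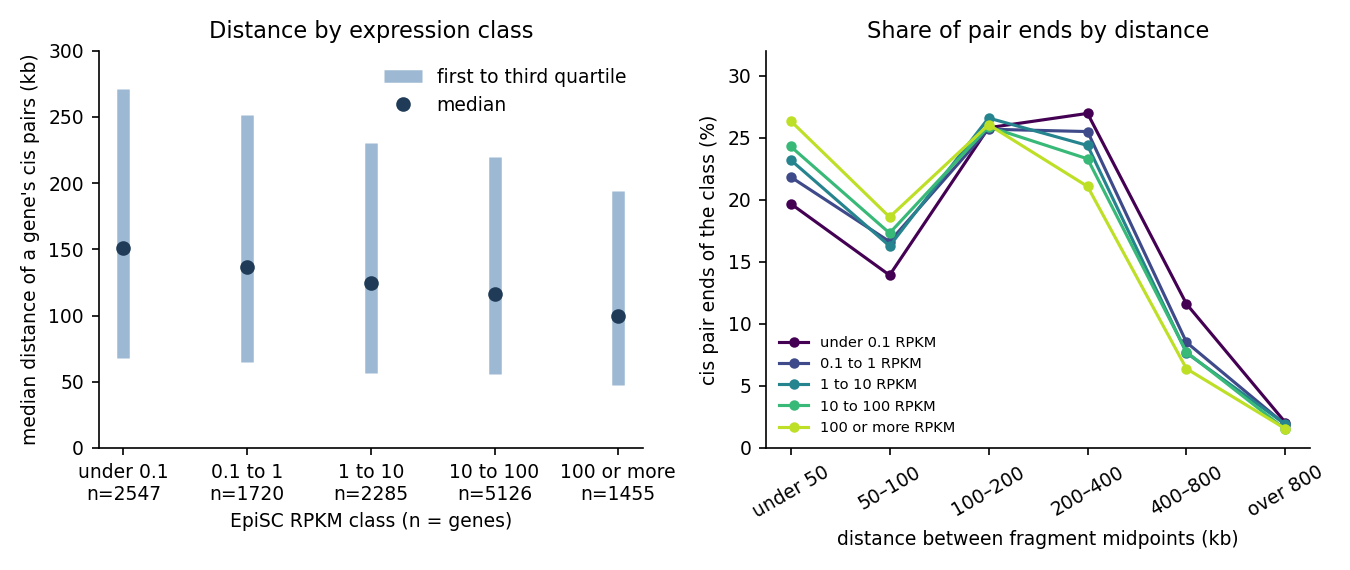
Left, median distance of a gene's cis pairs (kb) in classes of EpiSC RPKM, with the median over genes as a point and the interquartile range as a bar. Right, share of the cis pair ends of each class in bins of distance; the class of 100 RPKM or more has the largest share under 50 kb (26.4%) and the smallest at 400 to 800 kb (6.39%).

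Reads followed distance. The summed reads of a gene had a rho of 0.088 with RPKM, and the median reads per pair 0.079, with medians of 9.5 reads per pair under 0.1 RPKM and 12 at 100 RPKM or more. However, reads per pair had a rho of -0.799 with the median distance. Within bins of distance the relation was of the other sign or near 0. The rho of a pair's reads with the RPKM of its bait was -0.031 under 50 kb, -0.069 at 50 to 100 kb, -0.049 at 100 to 200 kb, -0.056 at 200 to 400 kb, -0.021 at 400 to 800 kb, and 0.021 above 800 kb. The median pair held 34 reads under 50 kb and 5 above 800 kb. Under 50 kb the medians were 32 reads at 100 RPKM or more and 35 reads under 0.1 RPKM. Pairs are listed by how far their reads exceed those expected at their distance (lowest score 5). Reads of listed pairs are thus held to a similar threshold within a bin, and cannot show whether contacts differ in strength with expression.

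The type of partner varied little with the level of expression. Baited partners made up 18.4% of all cis pairs, at a median distance of 114 kb, against 147 kb for unbaited partners, and both kinds had a median of 11 reads. The share of a gene's partners that were baited had a rho of 0.014 with RPKM (0.057 among genes with at least 1 RPKM). Counting each pair from each of its baits, 34.6% of the pair ends of genes under 0.1 RPKM had a baited partner (33.8 to 35.3), against 29.2% at 0.1 to 1 RPKM (28.4 to 30.0), and 33.0% at 100 RPKM or more (32.1 to 33.9). The share was thus lowest in genes of low expression and not at either end. The surplus of silent genes was largest at short range: under 50 kb, 44.7% of the pair ends of genes under 0.1 RPKM had a baited partner and 34.2 to 36.2% in the other classes. At 400 to 800 kb the shares were 31.9% under 0.1 RPKM and 34.0% at 100 RPKM or more. Genes with many contacts made most of them with unbaited DNA. The median baited share was 50% at 2 to 4 cis pairs and 19.05% at 20 or more (0 at a single pair).

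The share of unbaited partners that overlapped exons was larger in highly expressed genes. Of 57993 unbaited pair ends, 29.2% lay on a fragment with an exon of a protein-coding gene, 30.9% on one within an intron, and 39.9% between genes. The exonic share was 25.8% for genes under 0.1 RPKM and 32.8% for those with 100 RPKM or more, and the intergenic share 46.8% and 38.3%. Distance moved with these shares, and so they were also taken within bins. Under 50 kb the exonic shares were 30.0% and 41.2%, at 100 to 200 kb 26.9% and 31.9%, and at 400 to 800 kb 21.01% and 21.58%. Above 800 kb the order turned, with 11.9% and 8.82% (219 and 102 pair ends). Base composition hardly differed, with a median GC content of 45.7% and 46.3% in the partners of both classes. The median length of these partners was 1.58 kb under 0.1 RPKM and 1.76 kb at 100 RPKM or more. Partners within the bait's own gene were not set apart, and the part of either in the exonic share was not tested.

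Contacts between promoters joined genes of similar expression. Of the pairs with baits at both ends, 11604 had an RPKM at both, and the 2 values had a rho of 0.358. A partner with at least 1 RPKM was found for 79.1% of the ends with at least 1 RPKM (78.5 to 79.7) and for 34.4% of those under 0.1 RPKM (33.0 to 35.8). Neighbouring genes are alike without a contact, and baits in the same bin of distance that were not listed as a pair therefore give a background. Distances within a bin were not matched between listed and unlisted combinations, and the part of this in the values was not tested. Under 50 kb the rho was 0.418 in listed pairs and 0.353 in 8800 unlisted combinations. At 50 to 100 kb the values were close, 0.309 and 0.293. At 200 to 400 kb it was 0.324 and 0.172, and at 400 to 800 kb 0.491 over 888 listed pairs and 0.0993 over 72478 unlisted combinations. Of the 479 ends under 0.1 RPKM in listed pairs of 400 to 800 kb, 65.1% had a partner under 0.1 RPKM as well (60.8 to 69.3). In unlisted combinations of that distance the share was 33.4% of 30994 ends (32.9 to 34.0). Nearer, the listed pairs did not have the clearly larger share. The values were 60.4% (57.5 to 63.1) and 59.8% (58.3 to 61.2) under 50 kb. At 50 to 100 kb the listed pairs had the lower share, 44.5% (41.0 to 48.2) against 53.1% (51.7 to 54.5). This order did not hold without pairs within gene families, as given below. Pairs alike at both ends count from each end, and baits recur in several pairs, so the intervals of these shares are too narrow.

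The values were smaller without pairs within families. Families are sets of genes collected by name pattern, among them the 961 RIKEN-named genes, and related genes that no pattern names were kept. The 51 families with at least 10 baited genes hold 4044 of the 15313 baited genes. Without pairs whose ends belong to the same gene family, the rho was 0.268 over 10700 pairs, and at 400 to 800 kb it was 0.362 in listed pairs and 0.0241 in unlisted combinations. Without olfactory, vomeronasal, and taste receptor genes it was 0.298 over 11029 pairs. Among pairs with at least 1 RPKM at both ends it was 0.0692 over 6289 pairs, where the range of levels is narrower. For ends under 0.1 RPKM, the share of partners under 0.1 RPKM was also taken without pairs within families. At 50 to 100 kb it was 37.2% (33.5 to 41.2) in listed pairs and 36.1% (34.6 to 37.7) in unlisted combinations. Under 50 kb the shares were 47.7% (44.3 to 51.1) and 43.8% (41.9 to 45.6). Without the receptor genes they were 36.4% (32.7 to 40.3) and 38.2% (36.6 to 39.8) at 50 to 100 kb.

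**Figure D3:**
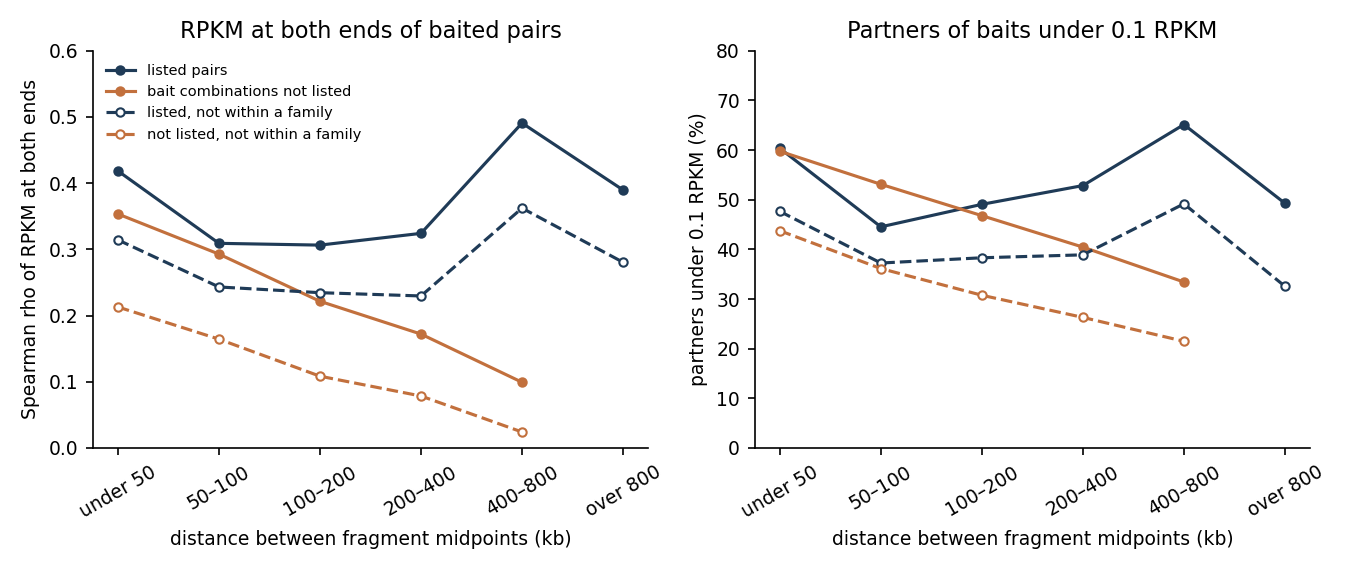
Left, Spearman's rho of the RPKM at both ends of pairs of baited fragments in bins of distance, for listed pairs and for bait combinations not listed, each also without pairs within a gene family. Right, share of the partners of baits under 0.1 RPKM that are themselves under 0.1 RPKM; at 400 to 800 kb the listed pairs reach a rho of 0.491 and the unlisted combinations 0.0993.

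CpG content separated expression but not contact number. Promoters of genes under 0.1 RPKM held a median of 3 CpGs in 300 bases, those at 0.1 to 1 RPKM 7, those at 1 to 10 RPKM 16, and those at 100 RPKM or more 23. By number of cis pairs the medians were 13 at 0, 16 at 1, 17 from 2 to 19, and 16 at 20 or more. The rho of CpG number was 0.587 with RPKM over 9727 genes and 0.041 with pair number over the 8375 of them with a pair. The letters TATAAA, searched on the gene's strand and without regard to overlap with other motifs, were in 7.58% of these promoters, in 17.4% of those under 0.1 RPKM, in 5.04% of those at 100 RPKM or more, and in none of the 4 shown above. When the promoters were divided by CpG number, pair number and RPKM had a rho of 0.137 among the 2798 connected genes with up to 9 CpGs, 0.046 among the 2942 with 10 to 23, and 0.0075 among the 2635 with 24 or more.

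Of the 10 genes with the highest RPKM, 3 had no cis pair: Ptma (prothymosin alpha) at 5511 RPKM, Pkm2 (pyruvate kinase of glycolysis) at 5509, and Gm10076 at 5227. A cis pair was listed for 89.2% of the baited genes with at least 100 RPKM, as given above, and 14.2% of all baited genes had none. The chaperone gene Hsp90ab1, the most expressed at 6190 RPKM, had 5 cis pairs, all within 54.2 to 90.2 kb. Among the ribosomal protein genes, Rpl32 (5249 RPKM) had 7 and Rplp1 (3453 RPKM) had 1, at 544 kb with 5 reads. The elongation factor gene Eef2 (4513 RPKM) had 17 and the fatty acid desaturase gene Scd2 (3498 RPKM, 246 in WT ESCs) had 15, the largest numbers of the 10, and Tubb5 (2713 RPKM) had 9. Ribosomal protein genes and Gm10076 have near-identical copies in the genome, among which reads can be split, so their RPKM values are uncertain.

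Besides Rplp1 and Lars2, the genes with at least 100 RPKM and a single cis pair that had the highest expression were the nucleolar gene Npm1 (1747 RPKM), the ubiquitin ligase gene Nedd4 (1639 RPKM), and Pou5f1. The pair of Npm1 spanned 380 kb with 4 reads, that of Nedd4 13.1 kb with 14 reads, and that of Lars2 109 kb with 15 reads, to Tmem158. Pou5f1, which encodes the pluripotency factor OCT4, had 1422 RPKM and contacted Psors1c2 at 28.7 kb with 18 reads and a score of 5.13, just above the lowest listed score of 5.

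Regulators of pluripotency and lineage could be highly expressed with few cis pairs or none. The 11 core pluripotency genes had a median of 2 cis pairs at a median of 262 RPKM. Nanog had the most, 12 at 361 RPKM, followed by Sox2 with 9 at 137 RPKM, whose median distance was 452 kb, Zfp281 with 8 at 72.5 RPKM, Utf1 with 7 at 262 RPKM, and the DNA methyltransferase gene Dnmt3b with 6 at 271 RPKM. The Nodal co-receptor gene Tdgf1, at 765 RPKM, had 1, and Lin28a (414 RPKM) and Sall4 (94.9 RPKM) had none. The 17 primed genes had a median of 5 cis pairs at 78.0 RPKM. Zic2, a zinc finger factor of the primed state, had 36 cis pairs at 108 RPKM, none with a baited partner, at a median of 218 kb. The others with at least 10 were Lefty2 (49.0 RPKM) and Wnt3 (19.9 RPKM) with 13 each and Sox3 (58.5 RPKM) with 10. Fgf8 (77.4 RPKM) and Lef1 (10.9 RPKM), of FGF and Wnt signalling, had 9 each, and the Activin inhibitor gene Fst (77.1 RPKM) had 6. Zic5, which neighbours Zic2, had 5 at 51.1 RPKM, and the methyltransferase gene Dnmt3a 5 at 44.3 RPKM. Pou3f1 (80.7 RPKM) had 3, and Nodal (122 RPKM) had 2 with 95 reads. Lefty1, the Nodal inhibitor that was the most expressed gene of the list at 1680 RPKM, had 3, all baited and at a median of 16.8 kb. Fgf5 and Cer1 (233 RPKM) had 2 each, Otx2 (78.0 RPKM) had 1, and the N-cadherin gene Cdh2 (78.0 RPKM) had none.

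Weakly expressed regulators could have as many contacts as these. The 13 naive genes had a median of 3 cis pairs at 2.63 RPKM. Esrrb, an orphan receptor of the naive network, had 12 at 0.775 RPKM (210 in WT ESCs) and the LIF receptor gene Lifr 10 at 7.32 RPKM. The naive genes that still had at least 10 RPKM were Klf5 (31.9 RPKM, 3 cis pairs), Fgf4 (15.5 RPKM, 1), and Klf4 (10.9 RPKM, 4). The 14 germ layer genes had the highest median of the 4 lists, 7 cis pairs at 7.21 RPKM, and each had at least 1. Eomes, a T-box factor of mesendoderm, had 22 at 26.2 RPKM, Cdx2 18 at 0.781 RPKM, the eye and neural factor Pax6 16 at 2.02 RPKM, the organizer factor Gsc 12 at 47.5 RPKM, and Hand1 10 at 0.0219 RPKM. Lhx1 (39.3 RPKM) had 6 and the endoderm factor gene Sox17 (12.6 RPKM) had 4. T itself, with the highest RPKM of the list, had 3, and Foxa2 (90.5 RPKM) had 2. In each of the 4 lists, the gene with the most cis pairs was not the gene with the highest RPKM. In lists this short, that does not measure a relation.

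**Figure D4:**
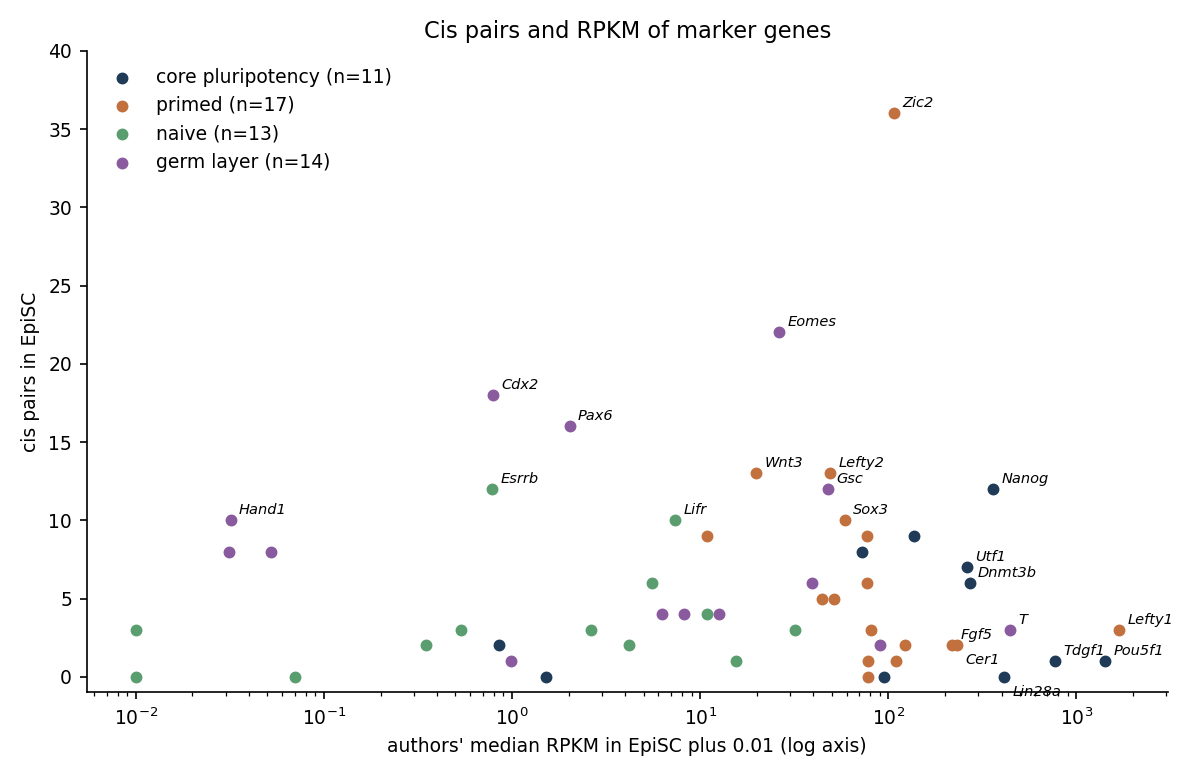
Number of cis pairs in EpiSCs against the authors' median RPKM plus 0.01 (log axis) for the measured genes of the core pluripotency, primed, naive, and germ layer lists, with names for genes of at least 150 RPKM or 10 cis pairs. Zic2 has the most cis pairs (36), and Pou5f1 and Lefty1, at 1422 and 1680 RPKM, have 1 and 3.

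Median pair numbers spanned a wide range over gene families. That range cannot be set against the classes of expression, since families are smaller and more numerous and their medians count genes without a pair as 0. Over the 51 families with at least 10 baited genes, the median number of cis pairs ranged from 16 to 1, beside a median of 3 over all 15313 baited genes (interquartile range 1 to 7). The rho of a family's median pair number with its median RPKM was 0.191 over the 51 families. A median under 1 RPKM was found in 5 of the 10 families with the most pairs and in 17 of all 51. The 6 families with medians of at least 100 RPKM ranged from 6 cis pairs (proteasome genes, 190 RPKM) through 4 (translation factor genes), 3.5 (spliceosome genes), and 3 (ribosomal protein genes, 167 RPKM, and glycolysis genes) to 2 (respiratory chain genes, 143 RPKM).

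The Hox genes, which pattern the body axis and lie in 4 clusters, had the most cis pairs, with a median of 16 (9 to 27) over 31 genes at a median of 0.452 RPKM. The median was 7 with pairs scored at least 7, 2 with pairs scored at least 10, and 10 with unbaited partners only. All 31 had a pair and 13 had at least 20, against 5.27% of all baited genes. Hoxc5 led with 64, followed by Hoxc11 with 47 (0.0453 RPKM) and Hoxc8 with 42 (1.55 RPKM). The best partner of Hoxc5 was an intergenic fragment 157 kb away (chr15:103170893-103173407), with 74 reads and a score of 80.5. Hoxd13, the most expressed at 2.93 RPKM, had 6, at a median distance of 660 kb. Of 156 baited pairs with a Hox gene, 57 (36.5%) joined Hox genes, at a median of 44.1 kb.

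Keratin, protocadherin, and histone genes, the next families, also lie in clusters. Their median numbers of other baits within 500 kb were 55, 26, and 32.5, and that of the Hox genes 29. It was 23 for olfactory receptor genes, which had few pairs, and 14 to 16 in the classes of RPKM. The part of bait density in the family medians was not tested. Keratin and keratin-associated genes, structural genes of epithelia and hair, had a median of 10 (6 to 19) over 81 genes, of which 5 had at least 1 RPKM. Krt73 and Krt74 had 51 each at 0 RPKM and Krt75 had 48 at 0.0150 RPKM, while Krt8, a keratin of simple epithelia with 430 RPKM (53.8 in WT ESCs), had 9. The keratin median depended on weak and on baited pairs, and was 4 with pairs scored at least 7, 0 with pairs scored at least 10, and 3 with unbaited partners only. Keratin gene pairs spanned a median of 239 kb and 200 of 421 baited pairs (47.5%) stayed within the family. Clustered protocadherin genes, which encode neuronal adhesion molecules, had a median of 9 (5 to 17) over 21 genes at 1.57 RPKM, which was 4 and 1 with pairs scored at least 7 and 10. The most connected were Pcdhb19 with 32, Pcdhb18 with 27, and Pcdhb21 with 25, all at 2.39 to 5.82 RPKM and all at under 0.1 RPKM in WT ESCs, and Pcdhgc5 had the highest RPKM (35.0) with 17. Within the family fell 47 of 67 baited pairs (70.1%). Genes of the alpha and gamma protocadherin clusters, among them Pcdhgc5 but not the Pcdhb genes, share exons, and reads in these cannot be assigned to 1 gene.

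Histone cluster genes had a median of 8 (4 to 13) over 31 genes, at a short median distance of 48.9 kb and 0.782 RPKM, and 4 and 2 with pairs scored at least 7 and 10. Hist1h2ae had 39 at 3.14 RPKM, Hist1h2bl 30, and Hist1h4h 27, and reached up to 1858 kb along chromosome 13, whereas Hist3h2ba, the most expressed at 23.8 RPKM, had none. Histone genes are near-identical copies of each other, so their RPKM values are uncertain. Within the family fell 57 of 85 baited pairs, 12 of them above 800 kb. The genes collected as basic helix-loop-helix factors had a median of 6 (1 to 12) over 52 genes on 17 chromosomes, with 1 of 73 baited pairs within the family. After Myod1 came Bhlhe40, a circadian repressor, with 59 at 115 RPKM, and Tcf7l1 with 35 at 109 RPKM, which was gathered by its name and is an HMG-box repressor of Wnt targets. Tcf25, the most expressed at 215 RPKM, had 1.

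The 4 least connected families, each with a median of 1, included the receptors of smell, taste, and pheromones. The 86 vomeronasal and taste receptor genes had a median of 1 (0 to 2) and 32 had none, and none reached 1 RPKM. The 611 olfactory receptor genes had a median of 1 (0 to 3) at a median of 0 RPKM, and 176 had none. Of all baited genes, 14.2% had none. The pairs of olfactory receptor genes were mostly with baits, at a median share of 75%, and 370 of 609 baited pairs (60.8%) joined olfactory receptor genes, 12 of them above 800 kb. A few were well connected, namely Olfr1441 with 32, Olfr570 with 27, and Olfr76 with 23, all at 0 RPKM, and Olfr76 had its best pair with Olfr1441 (301 kb, 22 reads). The most expressed genes of the 2 families, Olfr31 (2.87 RPKM) and Tas1r1 (0.526 RPKM), had no pair and 4. Tas2r138, Vmn1r1, and Vmn1r234 had 11 each.

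UDP- and sulfotransferase genes, of drug metabolism, had a median of 1 (0 to 3.75) over 22 genes, led by Ugt1a1 with 16 and Sult1a1 with 14, while Ugt1a8 had 5 and the most expressed, Sult4a1 (25.8 RPKM), had 1. Ugt1a1 and Ugt1a8 share their last exons, and their RPKM values of 12.1 and 12.2 cannot be separated. Cadherin genes had a median of 1 (0.5 to 6.5) over 15 genes. The 3 with the most pairs, Cdh15 (17), Cdh16 (15), and Cdh12 (12), were all under 0.15 RPKM, and Cdh1, the E-cadherin gene with 188 RPKM, had 1. Respiratory chain and ATP synthase genes had a median of 2 (1 to 5) over 72 genes at 143 RPKM. The most connected were Ndufv2 (34), Atp5e (27), and Atp5o (20), at 167 to 211 RPKM, among 4 with at least 20, while Cox8a, the most expressed at 1058 RPKM, had 2.

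**Figure D5:**
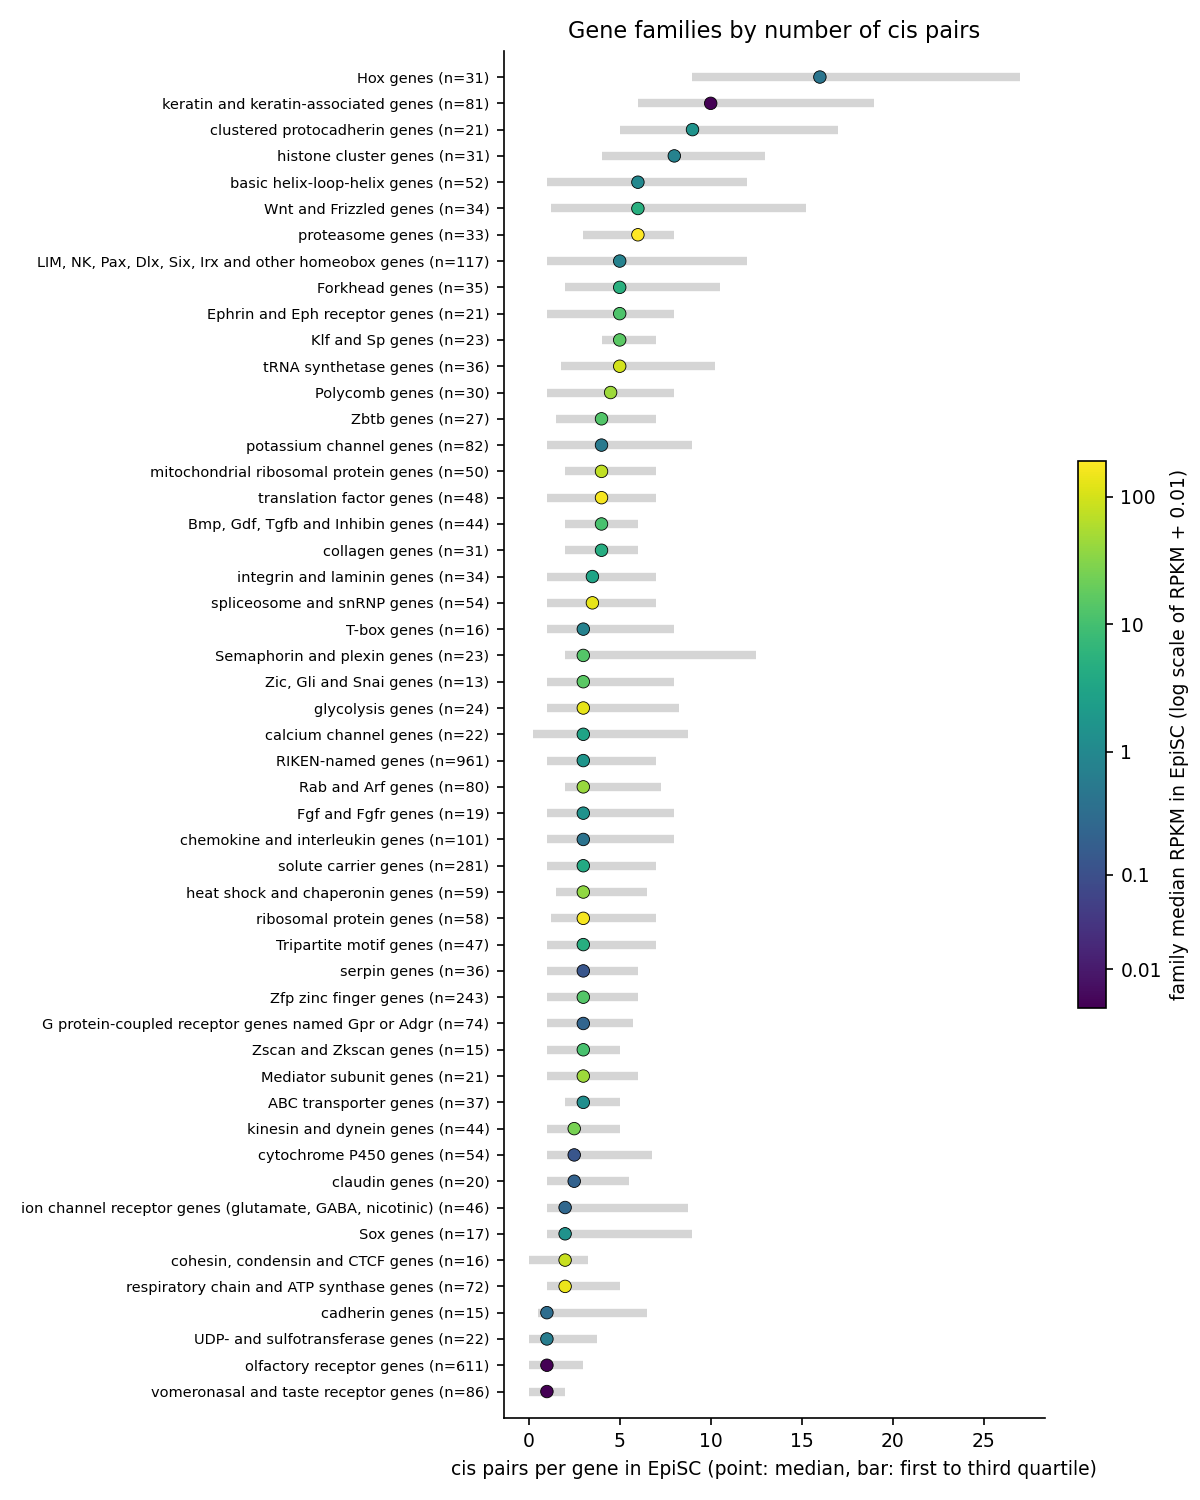
Number of cis pairs per gene in EpiSCs for the 51 families, with the median as a point, the interquartile range as a bar, and the colour of the point giving the family's median RPKM (log scale of RPKM plus 0.01). Hox genes (median 16) and keratin genes (10) stand at the top with low RPKM, the proteasome genes (6) are the first family above 100 RPKM, and olfactory receptor genes (1) are near the bottom with low RPKM as well.

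The pairs with the highest scores and over the greatest distances included several between related sequences. The highest score, 216.71, joined the defensin gene Defb15 (0.138 RPKM) to a fragment in Defb34, 2.81 Mb away on chromosome 8, with 51 reads. The next, 106.13, joined 1810030J14Rik, whose bait lies on Mptx1, to a fragment on Mptx2 at 1.05 Mb, with 44 reads. Bbs4 (27.2 RPKM) was joined to a fragment in 4930563M21Rik at 3.34 Mb with 33 reads, and the other high scores were those of Scnn1g described above and of 9930013L23Rik with a fragment on Arnt2 at 184 kb. Defensin genes, and the pentraxin genes Mptx1 and Mptx2, are paralogs of each other, and the part of this in the pairs was not tested. The 5 longest pairs ranged from 83.8 Mb to 168 Mb with 3 or 4 reads each, from the baits of Cd244, Pramef8, Pramel1, Hjurp, and Ugt1a1. Pramef8 and Pramel1, neighbouring members of 1 gene family on chromosome 4, were joined to the same fragment on Anp32b. Among genes with at least 5 cis pairs, the largest median distances were 2832 kb for Fstl5 (0 RPKM, 5 pairs), 1889 kb for Kbtbd8 (17.6 RPKM, 5 pairs), 1625 kb for Opn5 (0 RPKM, 8 pairs), 1584 kb for the protease gene Adamts1 (20.4 RPKM, 14 pairs), and 1503 kb for the protocadherin-like gene Fat4 (1.05 RPKM, 5 pairs). All 14 pairs of Adamts1 were above 800 kb, and its best pair joined N6amt1 at 1554 kb.

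The relation of pair number and RPKM stayed weak within subsets of genes. Within chromosomes the rho was above 0 on 19 of 20, with a median of 0.079, the highest value on the X (0.171) and the lowest on chromosome 15 (-0.0518), which holds the HoxC and a keratin cluster. When genes were divided into 4 equal groups by local bait density, it was 0.113 in the sparsest and 0.024 in the densest, whereas that of distance was -0.0859, -0.0845, -0.0907, and -0.152. Within 4 equal groups of bait fragment length it lay between 0.044 and 0.113.

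The lists of the other cells are given side by side, each with its own RPKM values, and 1 combined list per cell type allows no test of a difference. The rho of pair number was 0.071 in EpiSCs, 0.010 in WT ESCs (13778 genes), and -0.011 in Nanog-/- ESCs (11628 genes). That of distance was -0.104, -0.156, and -0.112. Over the 10151 genes with a pair in all 3 lists, pair number had 0.038, -0.060, and -0.023. Pair numbers in EpiSCs had a rho of 0.704 with those in WT ESCs and of 0.639 with those in Nanog-/- ESCs over the 13133 members. Hox genes had a median of 16 in EpiSCs, 21 in WT ESCs, and 15 in Nanog-/- ESCs, and olfactory receptor genes 1, 3, and 0. The EpiSC list combines 2 sequencing lanes, and those of WT and Nanog-/- ESCs 5 each. Pair numbers can vary with depth, and the part of depth in these values was not tested.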

How the data were processed

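PCHi-C was read from the deposited list of EpiSC interactions, and expression from the deposited RNA-seq table. The authors mapped PCHi-C read pairs to GRCm38 (Bowtie 1.1.0 per the submitters' processing notes), filtered them with HiCUP, scored pairs of HindIII fragments with CHiCAGO, and combined the replicates. For each pair they deposited a CHiCAGO score and a combined read number, which is rounded after normalization and was also treated as a score, without a counting model. The deposited expression values are RPKM, which the authors reduced to 1 median per group (the notes name Trim Galore and TopHat). Their log2 fold changes and p-values were not used. The depth of the libraries is unknown.

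Entries were reduced to different pairs of fragments, keeping the higher score. All 96056 fragments of the 3 lists start and end at HindIII sites of GRCm38. Transcript suffixes were removed from bait names, and 138 baits carry no gene name. Of 15646 genes with an RPKM, 15313 were named on a bait in at least 1 of the 3 lists, and 10445 of these matched a RefSeq promoter by symbol. Distances are between midpoints, partners were annotated with protein-coding genes of GENCODE M21, and families were collected by name patterns. Named genes are the 10 with the most cis pairs, the 10 with the highest RPKM, members of 4 marker lists with at least 10 RPKM or 10 cis pairs (others complete a list), the 5 most connected under 0.1 RPKM, the 5 with at least 100 RPKM and the fewest pairs, 4 genes in each of the 5 families at either end, the 5 pairs of highest score and of greatest distance, and the 5 genes with at least 5 pairs and the largest median distance. A few genes that the rule takes are not reported here. Families, lists, and rules were chosen with earlier results of these data known. No test was made, because each value is combined over replicates, and correlations are descriptions across genes. Scripts were tested on simulated data (Python 3.11.15, pandas 2.3.3, scipy 1.17.1, bedtools 2.31.1).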

Additional observations from a re-analysis of the deposited data

Results flagged for a closer look

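Pairs between chromosomes were used in no comparison. The EpiSC list holds 388 of them, with a median of 4 reads, and 18 have baits at both ends. They were concentrated on few baits, with 56 on Gm16040, 32 on Gm7235, and 26 on Mad2l1. The highest score, 429.34, joined Gm11399 on chromosome 11 (chr11:3139559-3156796) to an unbaited fragment on chromosome 5 (chr5:32731269-32734115) with 58 reads. The bait of Gm16040 (chr11:69329193-69341496) was joined to nearby fragments on chromosome 8, the best with 39 reads and a score of 317.45 (chr8:93383064-93384393).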

How the results depend on the processing

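Results were recomputed under 10 alternatives set at the start and 1 added after seeing the data (no olfactory, vomeronasal, and taste receptor genes). Of 87 recomputed summary values, 74 moved by less than 0.05 (rho) or by at most 1.5 times (medians). Of 70 recomputed medians of the 10 families at either end, 30 moved by more. With pairs scored at least 7, the rho of pair number was 0.0167, the median of genes with 1 cis pair 11.3 RPKM, and the median over families 1 cis pair (main 3). With pairs scored at least 10, the rho reversed to -0.00626, the median of genes with 20 or more pairs was 1.43 RPKM (25 genes), that of genes with 1 pair 13.4 RPKM, and the median over families 0. With only genes of at least 1 RPKM, the medians of these classes were 24.8 and 25.9 RPKM by construction, and the rho at both ends of baited pairs 0.0692. With unbaited partners only, genes with 1 pair had a median of 7.68 RPKM. Without the receptor genes that median was 7.60 RPKM and the rho at both ends 0.298. For the other changes the cause was not tested. No family had a higher median than the Hox genes under the 7 alternatives run for families, but at a score of at least 10 histone cluster genes shared it (2), and many families shared the lowest median of 0, so that ranks there rest on ties. Including genes without a pair gives values for pair number and reads only, and unbaited partners give none for the baited share and the pairs of baits. No paired analysis was possible because the values are combined over replicates, and for the same reason no replicate could be left out. Above 800 kb the median pair holds 5 reads, which limits what such pairs show.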
